A study of Mus musculus with 56 samples.

Results

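The microRNAs of the mouse liver were compared between day 45 after rAAV-Cre, when miR-122 was at its lowest, and days 100 and 200, when part of it had returned. All columns of these days in the microRNA table were taken, which gave 5 of the 42 small RNA libraries of the series: 3 mice of day 45 (A, B and C), 1 of day 100 and 1 of day 200. All mice were of the 129Sv/J strain, carried pre-miR-122 flanked by loxP sites and received rAAV8 that expresses Cre under the Ef1a promoter by tail vein, and each library is the liver of 1 mouse. Uninjected floxed mice (day 0, 3 libraries) are given beside them as the level before removal. Age and sex were not given in the labels, the Ef1a promoter is not restricted to hepatocytes, and with 1 mouse at day 100 and 1 at day 200 the day cannot be told apart from the mouse.

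microRNAs are short RNAs cut from hairpin transcripts that guide Argonaute to messenger RNAs, mostly through the seed, the bases 2 to 8 of the mature strand. miR-122 is the dominant microRNA of the hepatocyte, and mice without it develop steatosis, fibrosis and liver tumours. The imprinted chr12qF1 locus (Dlk1-Meg3) carries one of the largest microRNA clusters of the mouse genome, expressed from the maternal allele, in embryo and brain far more than in adult liver, and the imprinted Igf2-H19 locus is likewise silenced in the liver after birth.

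The mature sequences below belong to the microRNAs that the results turn on. They were taken from RefSeq (GRCm38.p6), with the seed in capitals. The table gives 1 value per hairpin, so that the strand behind a value is not known. The first 4 are both strands of the microRNAs with the largest differences between day 45 and the later days, miR-483, within Igf2, and miR-675, within H19.
mmu-miR-483-3p: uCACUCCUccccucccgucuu
mmu-miR-483-5p: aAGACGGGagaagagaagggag
mmu-miR-675-3p: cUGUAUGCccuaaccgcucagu
mmu-miR-675-5p: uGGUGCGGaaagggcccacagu
These lie on the minus strand at chr7:142654932-142654952, chr7:142654968-142654989, chr7:142577078-142577099 and chr7:142577112-142577133. The next 2 stand for the chr12qF1 cluster, on the plus strand at chr12:109592888-109592909 and chr12:109723824-109723844.
mmu-miR-127-3p: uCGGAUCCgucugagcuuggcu
mmu-miR-376a-3p: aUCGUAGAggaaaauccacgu
These 4 of the miR-200 family are shown because they lay above all day 45 mice at both late days and fall into 2 seed groups. They lie on the minus strand at chr4:156054911-156054932, chr6:124717917-124717938, chr4:156055685-156055706 and chr4:156053916-156053937, in the order printed.
mmu-miR-200a-3p: uAACACUGucugguaacgaugu
mmu-miR-141-3p: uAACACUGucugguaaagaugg
mmu-miR-200b-3p: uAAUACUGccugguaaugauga
mmu-miR-429-3p: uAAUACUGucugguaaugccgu
The following 3 share 1 seed but lay on different sides of day 45. They lie at chr11:70235062-70235082 (plus strand), chr3:69009775-69009796 (plus strand) and chrX:53054306-53054327 (minus strand).
mmu-miR-195a-5p: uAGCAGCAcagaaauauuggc
mmu-miR-15b-5p: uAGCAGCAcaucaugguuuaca
mmu-miR-322-5p: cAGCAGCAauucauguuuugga
The last 2, from chr3:85467396-85467418 and chr13:17747552-17747573 (both plus strand), had the largest deficits at the late days among all tested microRNAs with an unadjusted p below 0.05, and consist largely of alternating bases.
mmu-miR-466k: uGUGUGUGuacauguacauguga
mmu-miR-466i-3p: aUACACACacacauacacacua

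The libraries of day 45 held 80092, 193910 and 533633 microRNA reads (A, B and C), that of day 100 held 451509 and that of day 200 held 771738. Levels are given in RPM, rescaled to the reads other than miR-122, so that the return of miR-122 itself does not lower the rest. A microRNA with 0 reads may have had up to 3, which is 37.8, 15.5 and 5.69 RPM in mice A, B and C, 6.95 RPM at day 100 and 4.80 RPM at day 200, and such limits cover counting error only. Mouse A is therefore the least precise of the 5. The striated muscle markers summed to 25.2 to 60.7 RPM at day 45 and 32.4 and 73.8 at days 100 and 200, and of their 6 names 2 had no read in any of the 5 livers.

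miR-122 was 5.31-fold above its day 45 mean at day 100 and 22.7-fold above it at day 200. Its share of all microRNA reads was 0.908%, 0.383% and 1.23% in the day 45 mice, 4.46% at day 100 (95% Wilson interval 4.40 to 4.52%) and 19.1% at day 200 (18.99 to 19.17%), intervals that cover counting error only. The study describes more mice of day 200 than the single library analysed here, so the value at that day is that of 1 mouse. Each late liver lay above all day 45 mice, and day 200 above day 100 by 4.28-fold. Against the uninjected mean of 66.4 ± 7.06% (SD, n = 3), day 100 reached 6.71% and day 200 28.7% of the former level. The mean log2 share of the late livers exceeded that of day 45 by 3.61 (exact two-sided permutation p = 0.2, the smallest that 2 against 3 mice can give).

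**Figure D1:**
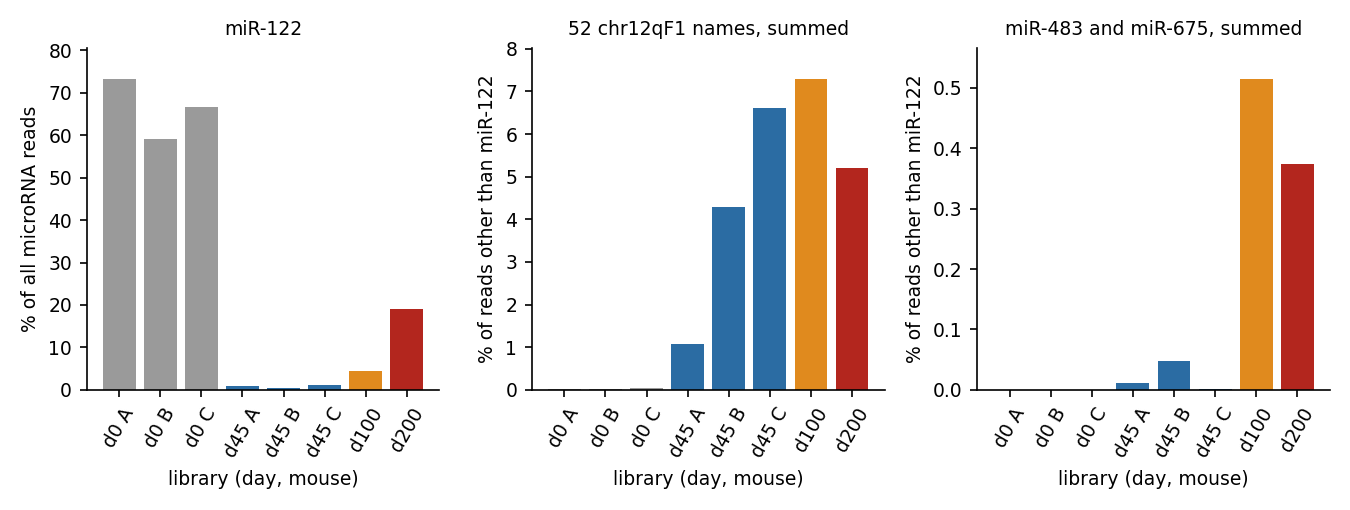
Bars show each library's share of reads on linear axes from 0: miR-122 in % of all microRNA reads (left), the 52 chr12qF1 names summed (middle) and miR-483 with miR-675 summed (right), both in % of reads other than miR-122. Grey, blue, orange and red stand for days 0, 45, 100 and 200, with no error bars since each bar is 1 mouse; the share of miR-122 was 4.46% at day 100 and 19.1% at day 200, while miR-483 and miR-675 reached 0.515% and 0.373%.

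Of the listed microRNAs other than miR-122, 259 had a mean of at least 10 RPM and were tested. No difference passed the threshold: limma, with Benjamini-Hochberg adjustment, called 0 of 259 (0%), and 9 (3.47%) had an unadjusted p below 0.05, 6 of them higher and 3 lower at the late days. limma voom on the recovered reads called 1, miR-483, and gave 16 with an unadjusted p below 0.05. The smallest adjusted p of limma was 0.105, for miR-483, and the next 0.873. The median standard error of a difference was 0.78 on the log2 scale. The median difference of all tested microRNAs was 0.32 on the log2 scale, 173 differences (66.8%) were above 0, and 190 (73.4%) lay within 1 of it. Scaling to all reads gave a median of 0.15, and centring each library on its median 0.10, with 57.4% and 54.4% of differences above 0.

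Few microRNAs had the course of miR-122. In 6 of 259 (2.32%) the order was the same, with day 200 above day 100 and day 100 above all mice of day 45: miR-130a, miR-186, miR-195, miR-200b, miR-376a and miR-98. The opposite order was found for 5 (1.93%), namely miR-1186, miR-139, miR-15b, miR-466i and miR-511. Poisson intervals, which cover counting error only, kept days 100 and 200 apart for miR-130a, miR-195, miR-376a, miR-98 and miR-15b. They overlapped for miR-200b (3658 to 4031 RPM at day 100, 3771 to 4083 at day 200). The intervals of miR-1186, miR-139, miR-466i and miR-511 overlapped as well. For miR-186, with 61 reads at day 100 and 98 at day 200, no interval is given. Days 100 and 200 both lay above all day 45 mice for 30 microRNAs (11.6%) and below all of them for 12 (4.63%). Without 1 mouse of day 45 at a time, 11 to 14 had the order of miR-122, 9 to 11 the opposite order, 53 to 71 both late livers above and 21 to 26 both below, a range over fewer mice being narrower. Scaled to all reads, 3 had the order of miR-122, with miR-186, miR-200b and miR-376a no longer among them, and 11 the opposite one. The liver of day 100 held more of a microRNA than that of day 200 for 172 of 259 (66.4%), the reverse of their order for miR-122, but for 130 with libraries centred on their median.

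**Figure D2:**
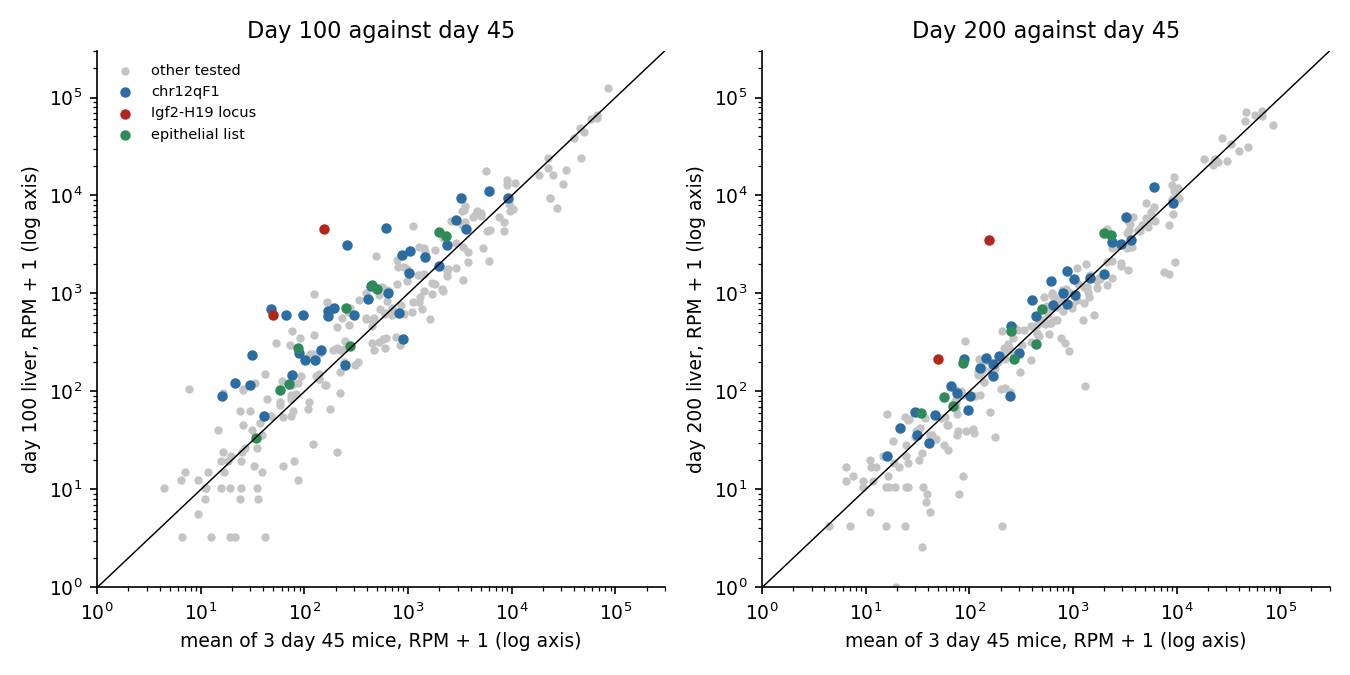
Each point is 1 of the 259 tested microRNAs, with its mean over the 3 day 45 mice on the x axis and its level in the day 100 liver (left) or the day 200 liver (right) on the y axis, both as RPM + 1 on log axes; the line marks equal levels. Blue, red and green mark the chr12qF1, Igf2-H19 and epithelial lists, and miR-483 stands farthest above the line in both panels, at 4553 and 3518 RPM against a day 45 mean of 153.

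The imprinted microRNAs of the Igf2-H19 locus were much higher at both late days. miR-483, which lies in an intron of Igf2, had 75.6, 383 and 0 RPM in mice A, B and C, 4553 RPM at day 100 and 3518 RPM at day 200. The 2 late livers lay above all day 45 mice, by 29.8-fold and 23.0-fold over their mean, from 6, 74 and 0 reads at day 45 against 1964 and 2197. The limma difference was 7.02 ± 1.65 (SE) on the log2(RPM + 1) scale, with an adjusted p of 0.105. Because mouse C had no read, that difference depends on the added 1, and with 10 added in its place it was 5.85 (limma adjusted p = 0.000389). Without mouse B the adjusted p of limma was 0.00591, without mouse C the difference was 4.54 (limma adjusted p = 0.279), and with the 5 libraries alone the limma adjusted p was 0.754.

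miR-675, processed from H19 RNA, had 37.8, 98.4 and 9.52 RPM at day 45 and 596 and 215 at days 100 and 200. The late livers again lay above every day 45 mouse, and day 100 above day 200. Its limma difference was 3.38 ± 1.17 (SE) on the log2 scale with an adjusted p of 0.873, and 0.00643 with 10 added in place of 1. The limma adjusted p was 0.754 with the 5 libraries alone, and limma voom gave 0.0508. The limma difference was 2.53 without mouse C and 4.15 without mouse B. Neither microRNA had a read in the uninjected mice.

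The transcripts that carry these microRNAs had the same order among libraries with the same letter, although the sources used here do not state that a letter marks 1 mouse. Igf2, a fetal growth factor, had 39.8, 255 and 3.66 FPKM in the RNA-seq libraries of mice A, B and C, 2932 FPKM at day 100 and 2374 FPKM at day 200. H19, a long noncoding RNA of fetal liver, had 392, 845 and 66.3 FPKM, then 2539 and 2486 FPKM. For both transcripts mouse B was highest and mouse C lowest at day 45, as for miR-483 and miR-675, and both late livers lay above all 3. In bulk tissue, more cells that express a transcript and more transcript per cell cannot be told apart.

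The chr12qF1 cluster, in contrast, was already high at day 45 and differed much less from there on. Of its 52 listed names, 50 have a RefSeq hairpin in chr12:109563692-109743795, 49 had a read in at least 1 of the 5 livers, and 36 were tested. Summed over the names, it held 1.07%, 4.28% and 6.61% of reads other than miR-122 in mice A, B and C, 7.29% at day 100 and 5.19% at day 200. Day 100 lay above all day 45 mice, and day 200 between mice B and C. The uninjected mice held 0.0281%, 0.0301% and 0.0338%, so that the return of 28.7% of miR-122 at day 200 stood beside a chr12qF1 share within the day 45 range.

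The mean log2 share of the cluster was 0.98 higher at the late days than at day 45, but 0.21 without mouse A. Transcripts of the chr12qF1 locus, not all of which carry its microRNAs, were given no test and lay as follows. Meg3 had 12.7, 89.4 and 61.3 FPKM at day 45 and 61.3 and 35.2 at days 100 and 200, and Rian had 12.01, 45.6 and 38.9, then 50.8 and 29.03. At day 45 mouse A was lowest and mouse B highest in both, whereas the cluster's share was highest in mouse C. Day 200 lay within the day 45 range in both. Mirg lay within that range at both late days. Dlk1 had 0.115 to 3.51 FPKM at day 45 and 3.25 and 4.48 at days 100 and 200, so that day 200 lay above it, and Rtl1 had 0.003 to 0.035, then 0.083 and 0.023 FPKM, with day 100 above.

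Among the 36 tested chr12qF1 microRNAs, 9 (25.0%) had both late livers above all day 45 mice, against 11.6% of all tested microRNAs, and 0 had both below. The 9 became 5 when scaled to all reads, where the 30 of all 259 became 19 of 249. The median limma difference was 1.16 on the log2 scale, against 0.32 over all tested microRNAs. At day 100 27 members lay above all day 45 mice and 0 below, and at day 200 9 lay above and 3 below, against 39.4%, 13.1%, 15.4% and 10.4% of all tested microRNAs. With median centring 17 members lay above day 45 at day 100, beside 66 of all 259.

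The most abundant members did not share 1 course. miR-127, which lies antisense to Rtl1, had 819, 8029 and 18684 RPM at day 45 and 9500 and 8458 at days 100 and 200. Both late livers lay between mice B and C, and the limma difference of 0.85 ± 0.95 (SE, log2; adjusted p = 0.930) became −0.45 without mouse A. miR-376a had 2104, 9090 and 7012 RPM, then 11222 and 12266 RPM. It is the only tested member of the cluster with the order of miR-122, which it lost when scaled to all reads. Its limma difference was 1.20 ± 0.68 (SE, log2; adjusted p = 0.873), or 0.56 without mouse A.

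miR-136, a further antisense Rtl1 microRNA, had 1676, 2651 and 5449 RPM at day 45 and 9381 and 6085 at days 100 and 200. miR-154 had 517, 2904 and 7540 RPM, then 4523 and 3520. Only the former was beyond the day 45 range at both late days.

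**Figure D3:**
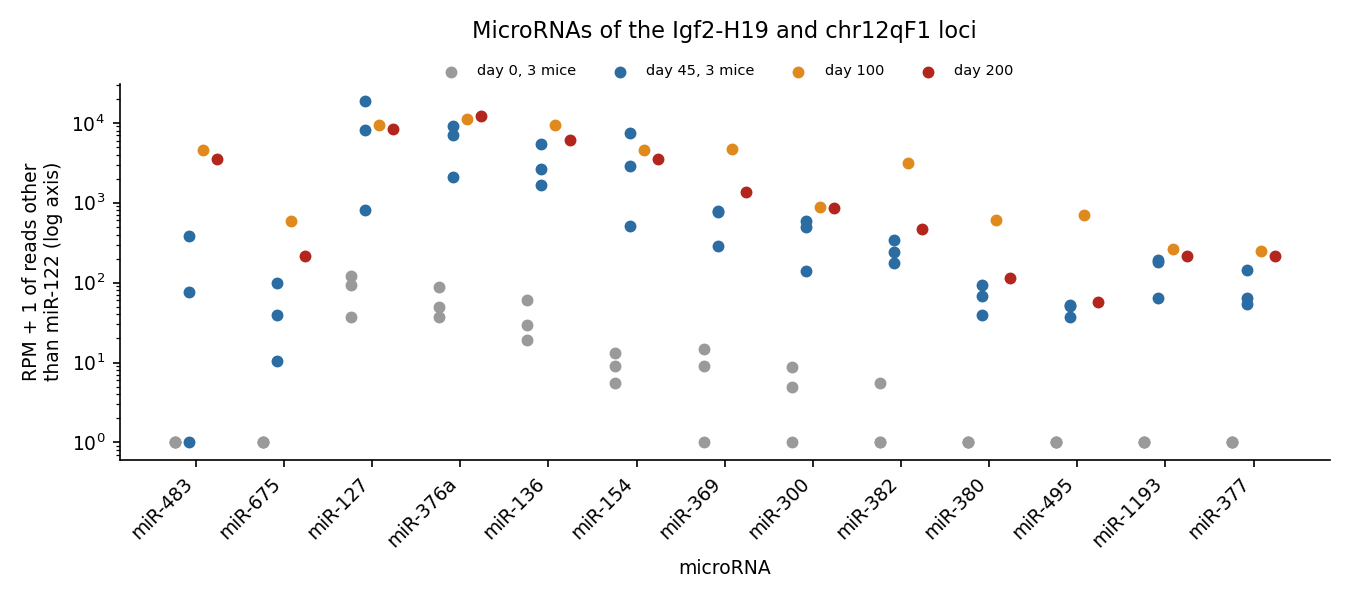
Levels of 13 microRNAs of the Igf2-H19 and chr12qF1 loci in RPM + 1 of reads other than miR-122 (log axis), with 1 point per liver: grey for day 0, blue for day 45, orange for day 100 and red for day 200. A library with no read stands at 1; for miR-483 and miR-675 both late points lie above all blue ones, while for miR-127 and miR-154 they lie among them.

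Along the cluster, day 200 differed from day 100 by very unequal amounts. In 32 of the 36 tested members (24 with median centring) day 200 was lower than day 100, against 172 (66.4%) of all 259 tested microRNAs (130 with median centring). The median log2 difference of day 200 from day 100 was −0.92 in the cluster and −0.37 over all tested. miR-376c, miR-376b, miR-376a, miR-300 and miR-381, which follow each other among the tested members, differed by −0.19, 0.11, 0.13, −0.03 and −0.24 on the log2 scale. Their neighbours on one side, miR-543, miR-495 and miR-667, differed by −3.21, −3.61 and −2.03, and the next tested members on the other side, miR-487b and miR-382, by −0.92 and −2.76. These genes were singled out after their values were seen, and the spread between mice at these days is not known.

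miR-495 had 50.4, 51.8 and 36.0 RPM at day 45 and 698 and 56.1 at days 100 and 200. miR-382 had 176, 238 and 345 RPM, then 3155 and 466 RPM. For both, day 100 stood far above the other 4 livers, and day 200 above all day 45 mice. The 4 members that were higher at day 200 than at day 100 were miR-494 and miR-299, by 2.27 and 0.67 on the log2 scale, with miR-376a and miR-376b.

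**Figure D4:**
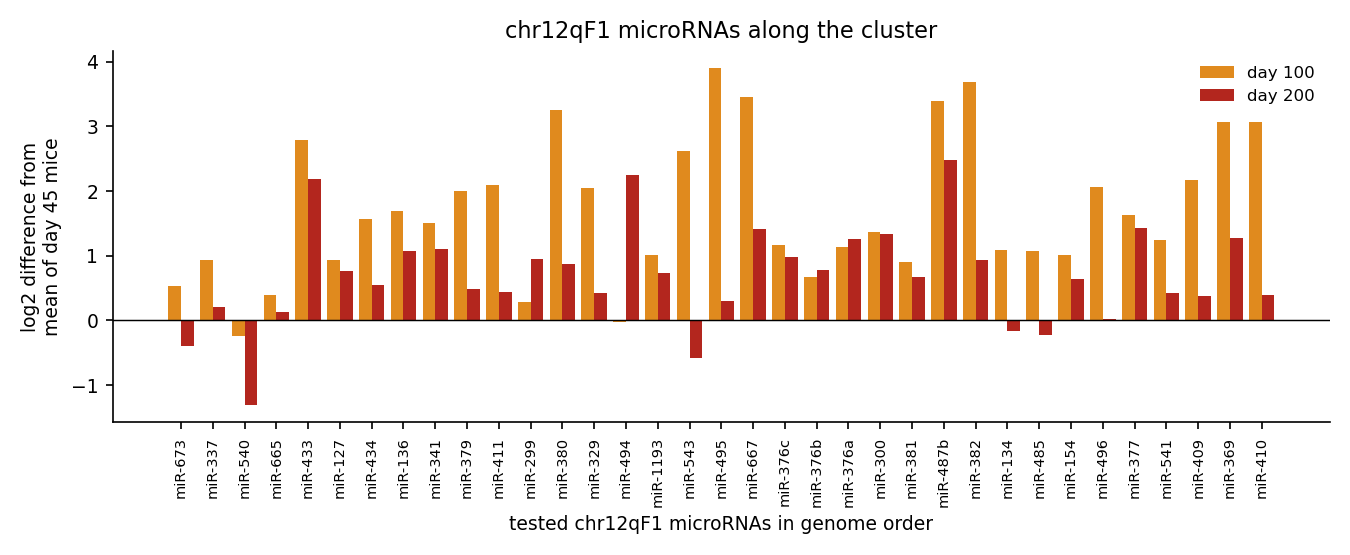
For the 35 tested chr12qF1 microRNAs with a RefSeq place, in genome order along the x axis, bars give the log2 difference from the mean of the 3 day 45 mice at day 100 (orange) and at day 200 (red), each from 1 liver and without error bars. The 2 bars are nearly equal from miR-376c to miR-381, while for miR-495 they are 3.91 and 0.30.

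The summed share of the epithelial microRNAs was higher in both late livers than in any day 45 mouse. The 11 names of this list, which mark bile ducts and other epithelia, held 0.532%, 0.668% and 0.609% of reads other than miR-122 at day 45 and 1.20% and 1.02% at days 100 and 200. These shares were 1.99-fold and 1.68-fold over the day 45 mean. Of 10 tested members 5 had both late livers above day 45, against 11.6% of all tested microRNAs, namely miR-200a, miR-200b, miR-429, miR-141 and miR-96, and no member had both below. With libraries centred on their median the 5 became 3, beside 21 of all 259, and with scaling to all reads 4, beside 19 of all 249.

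miR-200a, which restrains the epithelial-mesenchymal transition by targeting Zeb1 and Zeb2, had 1915, 2480 and 1577 RPM at day 45 and 4270 and 4170 at days 100 and 200. miR-200b, of the same transcript, had 1688, 2599 and 2652 RPM, then 3841 and 3925 RPM. miR-429, the third of that transcript, had 227, 280 and 243 RPM, then 702 and 416 RPM. In each the late livers stood clear of day 45, with limma differences of 1.11 ± 0.59, 0.78 ± 0.68 and 1.12 ± 0.69 (SE, log2) and adjusted p values of 0.873, 0.887 and 0.873.

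miR-141 and miR-200c come from a separate locus on chromosome 6 and differed from each other. miR-141 had 50.4, 82.8 and 36.0 RPM at day 45 and 102 and 86.5 at days 100 and 200, whereas miR-200c had 227, 368 and 220 RPM, then 290 and 211. The seed shared by miR-200b, miR-200c and miR-429 was thus carried by 2 microRNAs above the day 45 range and by 1 that was not. The 5 biliary markers summed to 4107 to 5808 RPM at day 45 and 9205 and 8809 at days 100 and 200.

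Among 5 cholangiocyte transcripts, 1 had both late livers above day 45, against 24.1% of the 11770 transcripts that averaged 1 FPKM or more over the 5 livers. Krt19, a keratin of bile ducts, had 5.78, 17.5 and 12.3 FPKM at day 45 and 15.0 and 19.4 at days 100 and 200. Epcam had 10.7, 36.4 and 20.48 FPKM, then 24.4 and 29.6. Spp1, a secreted matrix protein, was that transcript, at 2866 and 1854 FPKM against 383 to 1259. The part of bile duct cells in the microRNA values was not tested.

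Within the miR-15/16 seed family, members lay on both sides of day 45. miR-15b had 7484, 9323 and 8298 RPM at day 45 and 5355 and 4942 at days 100 and 200. Both late livers were below all day 45 mice and above the uninjected mice, which had 2779 to 4290 RPM. miR-195 had 2318, 2832 and 1284 RPM, then 3642 and 4500 RPM, the order of miR-122. The limma differences were −0.70 ± 0.43 for miR-15b and 0.99 ± 0.56 for miR-195 (SE, log2; adjusted p = 0.873 for both).

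Of the 7 tested microRNAs that carry this seed, 1 had both late livers above day 45 and 2 had both below, against 11.6% and 4.63% of all tested microRNAs. The second of these, miR-322, had 466, 461 and 848 RPM at day 45 and 273 and 381 at days 100 and 200. It belongs to an X-linked cluster with miR-503, miR-351, miR-542 and the miR-450 hairpins, of whose 7 tested members 3 (42.9%) had both late livers below day 45, against 4.63% of all tested microRNAs: miR-322, miR-351 and miR-450b, the last on 4 and 6 reads. At day 100 another 2 of the 7 (28.6%), miR-450a-1 and miR-450a-2, lay above all day 45 mice, at 127 and 144 RPM. Of all tested microRNAs 39.4% did so. At day 200 miR-450a-1 lay within the range and miR-450a-2 below it. miR-351 had 454, 456 and 1575 RPM, then 297 and 312 RPM. The list held 0.117%, 0.119% and 0.278% of reads other than miR-122 at day 45 and 0.0962% and 0.0886% at days 100 and 200, so both late livers lay below all day 45 mice.

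miR-466k, miR-466i, miR-1186 and miR-34a were the microRNAs that had left the uninjected range upward at day 45 and whose day 200 level lay inside it again. The ranges of days 0 and 45 did not overlap for 68 tested microRNAs (26.3%) that were higher at day 45 and 8 (3.09%) that were lower. Of the 68, 20 lay beyond the day 45 range at day 200, 37 within it, 7 between both ranges and these 4 within that of day 0. At day 100 the same counts were 41, 20, 4 and 3. Of all tested microRNAs, 15.4% lay above the day 45 range at day 200 and 39.4% at day 100. These microRNAs were picked by the day 45 mice that the late livers are set against, so the counts are a description.

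miR-466k had 126, 67.3 and 64.5 RPM at day 45 and 11.6 and 12.9 at days 100 and 200, against 3.90 to 19.8 RPM at day 0. miR-466i had 63.0, 72.5 and 101 RPM, then 18.5 and 8.03 RPM. The late livers lay far below day 45, but on 5 and 8 reads for the former and 8 and 5 for the latter. miR-1186 had 50.4, 31.0 and 32.3 RPM, then 13.9 and 8.03 RPM from 6 and 5 reads. The limma differences of the first pair were −2.65 ± 1.02 and −2.56 ± 1.12 (SE, log2; adjusted p = 0.873 for both).

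miR-34a, which is induced by p53, had 2810, 756 and 304 RPM at day 45 and 927 and 114 at days 100 and 200. The uninjected mice had 76.8 to 222.4 RPM. Day 100 lay within the day 45 range and day 200 below it, by 3.02 on the log2 scale from day 100.

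Of the 8 microRNAs that were lower at day 45 than at day 0, only miR-130a was back in the uninjected range at both late days. It had 4775, 5658 and 4840 RPM at day 45 and 6644 and 8352 at days 100 and 200, against 6252 to 18030 RPM at day 0. Its order was that of miR-122, with a limma difference of 0.55 ± 0.52 (SE, log2; adjusted p = 0.890). At day 100, 5 others lay outside the day 45 range, miR-148a, miR-210 and miR-93 above it and miR-126 and miR-671 below it, further from the uninjected mice, and all 5 lay within it at day 200.

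The 14 other names of the hepatocyte list held 5.47%, 2.60% and 4.23% of reads other than miR-122 at day 45 and 4.14% and 3.68% at days 100 and 200. Both late livers lay within the day 45 range, and 1 of 14 tested members was above it at both days, miR-193b, with 0, 10.3 and 9.52 RPM at day 45 and 104 and 12.9 at days 100 and 200. This 1 of 14 is 7.14%, against 11.6% of all tested microRNAs, and since 0 reads in mouse A allow up to 37.8 RPM, day 200 was not shown to lie above that mouse. miR-192, the most abundant, had 25389, 13667 and 28411 RPM, then 19089 and 20386 RPM. miR-802, a hepatocyte microRNA, had 239, 98.4 and 18.9 RPM, then 27.8 and 147 RPM, both within the day 45 range and below the uninjected mice, which had 440 to 949 RPM.

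The hepatocyte transcripts Ttr and Apoa1 were abundant in the RNA-seq libraries of these days. Ttr, the thyroid hormone carrier made by hepatocytes, had 7500 to 9972 FPKM at day 45 and 5211 and 8760 at days 100 and 200, and Apoa1 had 6492 to 8982, then 4942 and 8122 FPKM. Day 100 was lowest in both, and Cps1, a urea cycle enzyme, had 517 and 877 FPKM at days 100 and 200, both below the 909 to 1042 of day 45. Alb was listed at 0 in all libraries, and Serpina1a at 987 FPKM at day 100 and at 0 in the livers of days 0, 45 and 200.

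The share of the let-7 family lay within the day 45 range at both late days. let-7, which represses growth genes and is abundant in adult liver, held 30.2%, 51.9% and 38.1% of reads other than miR-122 at day 45 and 39.3% and 40.2% at days 100 and 200. let-7a-2 had 51660, 98318 and 49861 RPM, then 62266 and 64820 RPM, with a limma difference of 0.01 ± 0.57 (SE, log2; adjusted p = 0.996), whose sign turned to −0.17 with scaling to all reads and −0.21 with median centring. miR-98, which has the let-7 seed, was the 1 of 11 tested members with both late livers above day 45, at 1537 and 1979 RPM against 1258 to 1462, a share of 9.09% beside 11.6% of all tested microRNAs. The miR-30 family, of which miR-30b lay above day 45 at both days, held 1.66% to 3.49% at day 45 and 3.64% and 4.06% at the late days, above all day 45 mice.

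The miR-17-92 cluster with its paralogues held 0.449%, 0.433% and 0.419% of reads other than miR-122 at day 45 and 0.956% and 0.445% at days 100 and 200. Of 13 tested members 10 (76.9%) lay above all day 45 mice at day 100 and 1 at day 200, against 39.4% and 15.4% of all tested microRNAs, and with median centring 7 and 3 members did, beside 66 and 38 of all 259. miR-93 had 290, 689 and 486 RPM at day 45 and 2388 and 533 at days 100 and 200, and miR-106b, of the same intron of Mcm7, had 151, 176 and 163 RPM, then 816 and 160 RPM.

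miR-221, which represses the cell cycle inhibitor p27, had 1827, 492 and 1000 RPM at day 45 and 4900 and 1244 at days 100 and 200. miR-21, often raised in injured liver, had 124979, 52622 and 76022 RPM, then 124558 and 52615 RPM, so that the late livers lay near the upper and the lower end of the day 45 range. Its limma difference was 0.03 ± 0.79 (SE, log2; adjusted p = 0.985), with −0.14 when scaled to all reads and −0.19 with median centring. The listed transcripts of dividing cells, Mki67, Top2a and Ccnb1, were also highest at day 100. Mki67 had 1.93, 3.38 and 2.02 FPKM at day 45 and 6.32 and 1.81 at days 100 and 200. Top2a and Ccnb1 likewise lay above all day 45 mice at day 100 and not at day 200. Of these 3, 0 had both late livers above day 45, against 24.1% of the 11770 transcripts. The share of all transcripts above day 45 at day 100 alone is not given here.

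A library effect at day 100 was not tested. Uninjected mouse B differed from A and C in several of the same microRNAs, with 223886 RPM of miR-21 against 45364 and 16960. Over the 175 tested microRNAs with at least 100 RPM, the log2 difference of B from the mean of A and C correlated with that of day 100 from day 200 (Pearson r = 0.37, Spearman rho = 0.39), which is given across microRNAs that share these 5 libraries, as a description.

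The leukocyte microRNAs lay on both sides of day 45. miR-142, a marker of blood cells, had 6350, 6595 and 4132 RPM at day 45 and 17951 and 6845 at days 100 and 200. Both late livers lay above day 45, day 100 by 3.15-fold over the mean and day 200 by 1.20-fold. miR-146b, a brake on Toll-like receptor signalling, had 151, 56.9 and 62.6 RPM, then 352 and 325 RPM (limma difference 2.04 ± 0.78, SE, log2; adjusted p = 0.873). miR-511, which lies in the macrophage receptor gene Mrc1, had 983, 782 and 546 RPM, then 357 and 349 RPM (−1.08 ± 0.53; limma adjusted p = 0.873).

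Thus of 8 tested leukocyte microRNAs 2 (25.0%) lay above day 45 at both days and 1 (12.5%) below, against 11.6% and 4.63% of all tested microRNAs. Ptprc, the pan-leukocyte CD45, had 8.71 to 12.8 FPKM at day 45 and 13.7 and 12.1 at days 100 and 200, and Cd68, of macrophages, 24.6 to 32.8, then 23.9 and 21.98 FPKM. Cd3e, of T cells, had 1.34 to 1.43 FPKM at day 45 and 1.40 and 2.54 at days 100 and 200, and Cd79a, of B cells, 2.46 to 3.06, then 1.72 and 3.04 FPKM. These 4 transcripts did not share 1 direction. The 8 names of the leukocyte list held 1.28%, 1.01% and 0.729% of reads other than miR-122 at day 45 and 2.27% and 1.09% at days 100 and 200, day 200 within the day 45 range. The 4 leukocyte marker microRNAs summed to 5493 to 8606 RPM at day 45 and 21004 and 8910 at days 100 and 200. The part of leukocytes in these values was not tested.

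miR-140, which is abundant in cartilage and mesenchymal cells, had 1285, 2692 and 854 RPM at day 45 and 545 and 608 at days 100 and 200. Both late livers lay below day 45 and below the uninjected mice, which had 1073 to 2163 RPM, with a limma difference of −1.32 ± 0.52 (SE, log2; adjusted p = 0.873). miR-149 had 50.4, 10.3 and 7.59 RPM, then 62.6 and 54.5 RPM, above all day 45 mice but close to mouse A. Both were chosen for their unadjusted p below 0.05.

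**Figure D5:**
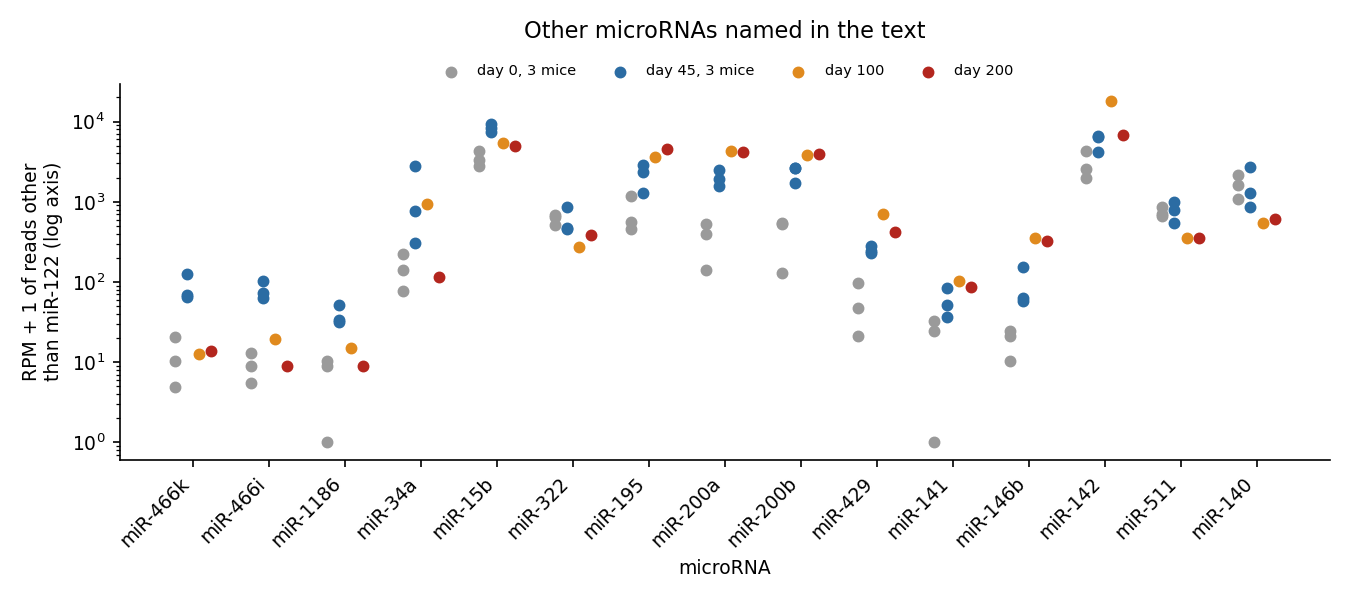
Levels of 15 further microRNAs in RPM + 1 of reads other than miR-122 (log axis), with 1 point per liver and the colours of days 0 (grey), 45 (blue), 100 (orange) and 200 (red). For miR-466k, miR-466i and miR-1186 the late points lie below all blue points, for miR-195, miR-200a, miR-200b and miR-146b above them, and for miR-34a only the red point lies at the level of day 0.

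Markers of the remaining cell types lay within and outside the range of day 45. miR-126, of endothelium, had 33655, 28882 and 36749 RPM at day 45 and 18176 and 33206 at days 100 and 200, and the other members of that list, miR-218-1 and miR-218-2, had 121 and 148 RPM at day 100, above at most 56.9 and 62.1 at day 45, and lay within its range at day 200. Of 3 endothelial transcripts, Cdh5 and Kdr lay below day 45 at both late days, as did 7.36% of the 11770 transcripts, and Pecam1 lay within its range. The fibroblast and stellate list held 5.18%, 4.43% and 3.34% at day 45, 3.81% and 4.23% at the late days, with 1 of 13 tested members above at both days (miR-199b), 7.69% beside 11.6% of all tested microRNAs. The erythroid list held 1.96%, 0.780% and 0.504% at day 45 and 0.788% and 0.302% at days 100 and 200. The miR-181 family held 0.292% to 0.561%, then 0.758% and 0.573%, and the miR-23/27/24 clusters 1.19% to 4.85%, then 3.41% and 2.14%, with no member of either beyond day 45 at both days.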

How the data were processed

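Small RNA libraries of floxed mouse livers and, for host and marker transcripts, RNA-seq libraries of the same days were used, with groups taken from the titles. The authors trimmed small RNA reads, aligned them to mouse microRNAs with Bowtie (0.12.7 in the submitters' processing notes) and deposited RPM with 1 added to every value. How reads that match several hairpins were counted is not given in the sources used here. The authors aligned RNA-seq reads to mm9 with TopHat and deposited FPKM from Cufflinks (2.2.1), which were used as values without a test.

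The added 1 was subtracted, reads were recovered from the step of the low values (100% whole within 0.15 read), and RPM were rescaled to reads other than miR-122. limma 3.58.1 in R 4.3.3 (trend, two-sided, Benjamini-Hochberg, threshold 0.05) was run on log2(RPM + 1) of microRNAs that averaged 10 RPM or more over 17 libraries (days 0, 7, 14, 21 and 45, 3 each, and days 100 and 200 joined as 1 group, as in the study's RNA-seq pathway comparison), and was tested on simulated data. Counts of late livers beyond the day 45 range, list sums and FPKM are descriptions. Of the tested microRNAs, 209 matched a RefSeq hairpin by symbol or synonym. The alternatives were other scalings, filters and pseudocounts, limma voom, other sample sets and leaving out each library.

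The 21 microRNA lists, the microRNAs named and the comparison itself were chosen with earlier results of these data known. The rules for naming took miR-122, miR-127, miR-376a, miR-483, miR-675, miR-21 and let-7a-2, and the largest differences in the order of miR-122 or its opposite. They also took the 10 most abundant microRNAs and up to 4 abundant members of each list, not all of which are given above. Those named for an unadjusted p, for their side of day 45 or for the ranges of day 0 were chosen after their values were seen. Figures were drawn with Python 3.11.15 and matplotlib 3.10.9.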

Additional observations from a re-analysis of the deposited data

Results flagged for a closer look

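The livers of days 100 and 200 lay on opposite sides of all 3 day 45 mice for 8 of 259 tested microRNAs (3.09%), and with 1 mouse a day the difference between the days was not tested. Day 200 was the higher in 3 of them, with log2 differences from day 100 of 1.57 for miR-29a, 1.19 for miR-30d and 0.53 for miR-340. It was the lower in the other 5, by −0.49 for miR-574, −0.996 for miR-92a-2, −1.25 for miR-134, −1.88 for miR-450a-2 and −3.21 for miR-543. The largest of these, miR-543 of chr12qF1, had 101, 98.4 and 91.0 RPM at day 45, 603 RPM at day 100 and 64.0 RPM at day 200, from 260 and 40 reads at the late days. miR-29a, one of the 10 most abundant microRNAs, had 49770, 27763 and 61131 RPM, then 23862 and 70881 RPM.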

How the results depend on the processing

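The 0 calls of limma remained 0 with every other scaling, with a filter of 100 RPM, with the 5 libraries alone, with days 100 and 200 as separate groups and, chosen after seeing the data, without mouse B of day 0. There were 2 calls with 10 added in place of 1 (miR-483 and miR-675), 5 without a filter on low values, 1 with limma voom, and 0 to 1 when single libraries were left out, the 1 being miR-483 without mouse B of day 45. Scaling to all microRNA reads left 19 microRNAs with both late livers above day 45, 3 in the order of miR-122 and 11 in the opposite order, which was 3 with median centring. Without 1 day 45 mouse at a time these counts were 53 to 71 above, 21 to 26 below, 11 to 14 in the order of miR-122 and 9 to 11 in the opposite order. The log2 difference of the miR-122 share was 2.57 to 4.66 without single libraries, and its direction was the same under all alternatives run.

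Differences near 0 changed sign, and the cause was not tested. let-7a-2 had −0.17 with scaling to all reads, −0.21 with median centring and −0.17 to 0.32 without single libraries. miR-21 had −0.14, −0.19 and −0.59 to 0.65, and miR-127 −0.45 to 1.80 without single libraries. No paired analysis was possible because days 100 and 200 carry no replicate letter and each library is the liver of 1 mouse. The sources used here do not state that a letter links mice of different days. No negative binomial count model was run, and limma voom was the count method used on the recovered reads. Precision is limited by 1 mouse at each late day and by 80092 reads in mouse A of day 45.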

Other observations

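The miR-26, miR-29 and miR-22 list, families that are abundant in adult liver, separated the late days. It held 18.8%, 14.4% and 18.5% of reads other than miR-122 at day 45 and 8.92% and 19.5% at days 100 and 200. Of its 8 tested members 5 lay below all day 45 mice at day 100 and 0 at day 200, against 13.1% and 10.4% of all tested microRNAs. miR-29c, which targets collagen transcripts, had 29673, 9924 and 42134 RPM at day 45 and 7534 and 38207 at days 100 and 200. miR-26b had 21533, 40095 and 31152 RPM, then 13104 and 22669 RPM. Col1a1, a collagen transcript of stellate cells and fibroblasts, had 7.20, 22.9 and 7.91 FPKM at day 45 and 15.6 and 9.40 at days 100 and 200, within the day 45 range at both days.

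The miR-466, miR-467, miR-669 and miR-297 names held 0.0593%, 0.0301% and 0.0635% of reads other than miR-122 at day 45, then 0.0317% and 0.0339%, and 2 of 10 tested members lay below day 45 at both days, against 4.63% of all tested microRNAs. The neural and endocrine list held 0.239%, 0.321% and 0.621%, then 0.221% and 0.245%, with miR-7a-1 below at both days. miR-296 and miR-298 of the imprinted Gnas locus held 0.00882%, 0.0186% and 0.0110%, then 0.0369% and 0.0106%.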
